A study of Mus musculus with 9 samples.

Results

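Regulators of G protein signalling (RGS proteins) were followed through 7 genes: Rgs1, Rgs2, Rgs10, Rgs14, Rgs16, Rgs18 and Rgs19. They were taken from the deposited count table by matching mouse Ensembl identifiers to these symbols, and make up 7 of its 22001 genes and 7 of the 21 genes in it whose symbol is Rgs followed by a number. The table comes from RNA sequencing of macrophages, the phagocytes of tissues, here derived in culture from bone marrow of C57BL6 mice, in 3 groups of 3 libraries. By their labels, the untreated-labelled libraries (A2, B2 and C2) received PBS. By theirs, the Pam3CSK4-labelled libraries (D1, D2 and D3) received Pam3CSK4, a synthetic lipopeptide that activates Toll-like receptor 2, at 100 µg/ml. Likewise, the 3SL-labelled libraries (A2plus, B2plus and C2plus) received Pam3CSK4 and 3SL (3'-sialyllactose in the series title, a sugar of milk), whose dose is stated as a volume, 100 µl/ml. Titles of the 3SL-labelled libraries write Pamc4, where those of the Pam3CSK4-labelled write Pamc3. The descriptions, which name Pam3CSK4 for both groups, were followed. Treatment lasted 6 h. Age and sex of the mice are not given in the sources used here. Nothing there says that replicate libraries stem from different cultures or mice, so p-values measure only the spread between libraries, which may be technical.

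A G protein-coupled receptor that binds its ligand loads the alpha subunit of a heterotrimeric G protein with GTP, which frees alpha and beta-gamma subunits to act on effectors such as adenylyl cyclase, phospholipase C beta and PI3-kinase gamma. RGS proteins bind the GTP-loaded alpha subunit through their RGS domain and speed up its hydrolysis of GTP, which ends the signal. In macrophages such receptors sense chemokines, formyl peptides, complement fragments, prostaglandins, adenosine and nucleotides.

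The labels did not go with the inflammatory genes Il1b and Tnf. Il1b, which encodes an inflammatory cytokine, stood at 10160 ± 457 CPM (reads scaled to library size, mean ± SD, n = 3) in the untreated-labelled libraries, 6.23 ± 1.68 in the Pam3CSK4-labelled and 8136 ± 565 in the 3SL-labelled. Tnf stood at 1704 ± 46, 18.4 ± 0.67 and 1267 ± 58.2 CPM in the same order. Groups are therefore called by their labels throughout, and each direction below is a direction between libraries so labelled. The codes of the Pam3CSK4-labelled libraries share the letter D, which no other library carries, so anything that goes with that letter and the treatment cannot be told apart. Total counts ran from 7472482 to 43980309 per library, and 11469 genes were tested. The macrophage genes Adgre1, Csf1r, Cd68 and Lyz2 were present in all 9 libraries, and the summed level of 8 macrophage markers ran from 24000 to 24500 CPM in the untreated-labelled, 16100 to 16600 in the Pam3CSK4-labelled and 23200 to 23800 in the 3SL-labelled libraries. Lyz2, at 11200 to 14400 CPM, made up most of each sum. Of the 8 markers 6 were called lower and 2 higher in the Pam3CSK4-labelled than the untreated-labelled libraries (edgeR, adjusted p under 0.05). With library sizes unscaled 3 were lower and 2 higher. Cd68 went up from 1020 to 1040 CPM to 1390 to 1440, and Mertk from 44.8 to 50.6 to 91.7 to 103. These are bulk samples, in which fewer cells of a type and less RNA per cell cannot be told apart.

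Between the Pam3CSK4-labelled and the untreated-labelled libraries all 7 RGS genes differed, 5 higher and 2 lower in the Pam3CSK4-labelled. Rgs2 and Rgs1 were higher by the widest margins, 47.1-fold and 11.9-fold, followed by Rgs18 and Rgs10 at 2.30-fold and 2.17-fold and by Rgs14 at 1.28-fold. Rgs16 was 1.89-fold lower and Rgs19 1.21-fold lower. In this comparison 75.0% of all tested genes were called different (edgeR quasi-likelihood test, adjusted p under 0.05), 39.0% higher and 35.9% lower. Changes of at least 2-fold were called in 24.0% of tested genes and in 4 of the 7 RGS genes. Values did not overlap between the groups for 76.0% of tested genes and for 7 of 7 RGS genes. The median log2 difference was 1.12 over the 7 and 0.027 over all tested genes.

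Rgs2 acts mainly on the Gq class of alpha subunits. Its gene lies on the minus strand at chr1:143999338-144004161 (GRCm38, GENCODE M21). Rgs2 stood at 4.12, 3.35 and 4.14 CPM in A2, B2 and C2, at 178, 177 and 165 in D1, D2 and D3, and at 4.78, 2.94 and 3.76 in A2plus, B2plus and C2plus. The Pam3CSK4-labelled libraries lay far above all 6 others, while the remaining groups overlapped. The log2 difference between the Pam3CSK4-labelled and untreated-labelled libraries was 5.56 (SE 0.0776, 95% confidence interval 5.40 to 5.72, adjusted p = 3.7e-29), rank 3 from the top among 11469 tested genes.

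The start of Rgs2 is shown because it is the member with the widest difference, beside those of Rgs10, which was also higher, and of Rgs16 and Rgs19, which were lower. Each line holds the 250 bases before the start site in RefSeq on GRCm38.p6, read 5′ to 3′ on the gene's own strand. Capitals mark matches, on either strand, to the GC box GGGCGG, to CCAAT and to TGACG, the half-site of the cAMP response element.
Rgs2, chr1:144004150-144004399, minus strand: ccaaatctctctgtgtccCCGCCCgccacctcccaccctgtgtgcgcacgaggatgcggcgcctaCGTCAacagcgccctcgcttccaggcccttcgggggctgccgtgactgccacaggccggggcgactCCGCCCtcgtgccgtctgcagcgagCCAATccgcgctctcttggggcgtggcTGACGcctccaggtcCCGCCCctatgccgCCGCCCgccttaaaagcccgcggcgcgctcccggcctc
Rgs10, chr7:128418173-128418422, minus strand: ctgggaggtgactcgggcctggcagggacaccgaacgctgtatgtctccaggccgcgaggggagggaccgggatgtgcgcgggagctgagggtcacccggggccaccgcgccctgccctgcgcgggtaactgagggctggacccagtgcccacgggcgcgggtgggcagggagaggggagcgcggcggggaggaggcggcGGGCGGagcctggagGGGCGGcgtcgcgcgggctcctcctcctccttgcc
Rgs16, chr1:153740103-153740352, plus strand: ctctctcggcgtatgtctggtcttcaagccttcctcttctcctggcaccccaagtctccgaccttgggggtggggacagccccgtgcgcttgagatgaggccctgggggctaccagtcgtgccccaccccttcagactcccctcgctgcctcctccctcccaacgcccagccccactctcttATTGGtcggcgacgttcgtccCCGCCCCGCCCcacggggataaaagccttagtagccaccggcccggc
Rgs19, chr2:181693978-181694227, minus strand: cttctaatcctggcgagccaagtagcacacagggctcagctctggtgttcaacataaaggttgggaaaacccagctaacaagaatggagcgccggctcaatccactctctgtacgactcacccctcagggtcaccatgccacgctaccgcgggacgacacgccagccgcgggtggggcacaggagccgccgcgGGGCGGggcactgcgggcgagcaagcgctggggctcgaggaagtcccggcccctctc
RefSeq windows were matched for 4 of the 7 members, with 3 windows for Rgs19, of which the one that ends at the GENCODE start is printed. The Rgs10 window lies within the GENCODE gene, whose start on the minus strand is at 128418758, so it does not precede that start. The Rgs2 window held 4 GC boxes, 1 CCAAT and 2 TGACG. Rgs10 held 2 GC boxes, Rgs16 held 2 that overlap by a base and 1 CCAAT, and the printed Rgs19 window held 1 GC box. Over all 32851 windows, cut in the same way, 32.7% held a GC box, 33.8% a CCAAT and 17.8% a TGACG. None of the 6 member windows matched the NF-kappaB consensus (7.25% of all windows), the AP-1 site TGANTCA (6.75%), the full cAMP response element TGACGTCA (1.55%), the interferon-stimulated element GAAANNGAAA (2.98%) or TATAAA (12.4%). GC content was 72.4% for Rgs2, 76.4% for Rgs10, 66.4% for Rgs16 and 64.8% for the printed Rgs19 window, against a median of 52.4% over all windows. These are matches of letters in a short window and say nothing of binding.

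Rgs1 is best known from lymphocytes, where it limits responses to chemokines. The gene lies at chr1:144242296-144249242 on the minus strand. Rgs1 stood at 13.2, 15.2 and 12.7 CPM in the untreated-labelled libraries, at 174, 164 and 172 in the Pam3CSK4-labelled and at 9.42, 11.6 and 10.7 in the 3SL-labelled. All 3 groups were separate, with the Pam3CSK4-labelled libraries highest and the 3SL-labelled lowest. The Pam3CSK4-labelled minus untreated-labelled difference was 3.58 on the log2 scale (SE 0.0595, interval 3.46 to 3.70, adjusted p = 1.82e-27), rank 48 from the top.

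Rgs18 is known as the RGS protein of platelets and megakaryocytes, and is also present in other marrow-derived cells. It lies at chr1:144752683-144775435 on the minus strand. Its levels were 26.6, 28.2 and 26 CPM in the untreated-labelled libraries, 65.4, 63.9 and 58.7 in the Pam3CSK4-labelled and 27.1, 25.7 and 25 in the 3SL-labelled. The Pam3CSK4-labelled group was again separate from the other 2 groups, which overlapped. The log2 difference was 1.20 (SE 0.0619, interval 1.08 to 1.33, adjusted p = 4.67e-16). The summed level of 9 megakaryocyte and platelet markers ran from 502 to 544 CPM in the untreated-labelled, 251 to 262 in the Pam3CSK4-labelled and 386 to 436 in the 3SL-labelled libraries. Pf4, at 489 to 528, 238 to 248 and 376 to 422 CPM, made up nearly all of that sum. Of the 4 markers tested between the Pam3CSK4-labelled and untreated-labelled libraries, Pf4 (log2 difference -1.07) and Itga2b (-0.60) were lower by edgeR. Treml1 was higher (1.04, from 0.602 to 1.14 CPM, adjusted p = 0.0242), as Rgs18 was, and Ppbp was not called (-0.17). DESeq2 called 2 of the 4 lower and 0 higher, so not Treml1. With library sizes unscaled edgeR called 1 higher and 1 lower. The platelet receptor genes Gp9, Gp1bb and Gp6 stood below 1 CPM in every library, and Gp1ba ran from 0.382 to 1.12 CPM. The part of such cells in the Rgs18 difference was not tested.

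Rgs10 is a small RGS protein, made of little more than the RGS domain, that acts on the Gi class and is abundant in microglia and macrophages. The gene lies at chr7:128373621-128418758 on the minus strand. Rgs10 stood at 45.2, 44 and 42.6 CPM in the untreated-labelled libraries, at 99.1, 93.1 and 95.1 in the Pam3CSK4-labelled and at 42.6, 40.9 and 39.6 in the 3SL-labelled. The log2 difference between the Pam3CSK4-labelled and untreated-labelled groups was 1.12 (SE 0.0487, interval 1.02 to 1.22, adjusted p = 1.03e-17). The Pam3CSK4-labelled libraries stood apart, and the other 2 groups met at 42.6 CPM.

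Rgs14, which besides its RGS domain carries Ras-binding domains and a GoLoco motif that holds Gi subunits in their GDP-bound form, lies at chr13:55369732-55384687 on the plus strand. It stood at 18.5, 22.7 and 17.5 CPM in the untreated-labelled libraries, at 25.3, 26.7 and 26 in the Pam3CSK4-labelled and at 19.1, 18.7 and 18.2 in the 3SL-labelled. Its Pam3CSK4-labelled libraries were above all others, by a log2 difference of 0.36 over the untreated-labelled (SE 0.0829, interval 0.19 to 0.53, adjusted p = 0.000337).

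Rgs19, also known as GAIP, a Gi-class RGS protein that associates with membranes, lies at chr2:181688419-181693977 on the minus strand. It stood at 91.5, 91.8 and 95.9 CPM in the untreated-labelled libraries, at 75.8, 77.1 and 76.9 in the Pam3CSK4-labelled and at 88.4, 99 and 87.8 in the 3SL-labelled. The Pam3CSK4-labelled group was lowest and separate, with a log2 difference of -0.28 from the untreated-labelled (SE 0.0468, adjusted p = 7.12e-06). That difference depends on the scaling between libraries: with library sizes left unscaled it was 0.04 (SE 0.0472, adjusted p = 0.477), and not called. The median gene then shifted by 0.34.

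Rgs16, which acts on Gi and Gq subunits, lies at chr1:153740349-153745468 on the plus strand, where its exons overlap those of an antisense gene, Gm28513. It was the scarcest member, at 2.15, 1.67 and 1.48 CPM in the untreated-labelled libraries, at 1.36, 0.689 and 0.841 in the Pam3CSK4-labelled and at 1.41, 1.27 and 0.712 in the 3SL-labelled. The Pam3CSK4-labelled and 3SL-labelled groups lay below the untreated-labelled one and overlapped each other. The Pam3CSK4-labelled libraries were lower by a log2 difference of -0.92 (SE 0.311, interval -1.55 to -0.28, adjusted p = 0.00993). The call was lost without D2 (-0.69, adjusted p = 0.0854) and with library sizes unscaled (-0.60, adjusted p = 0.0796).

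**Figure D1:**
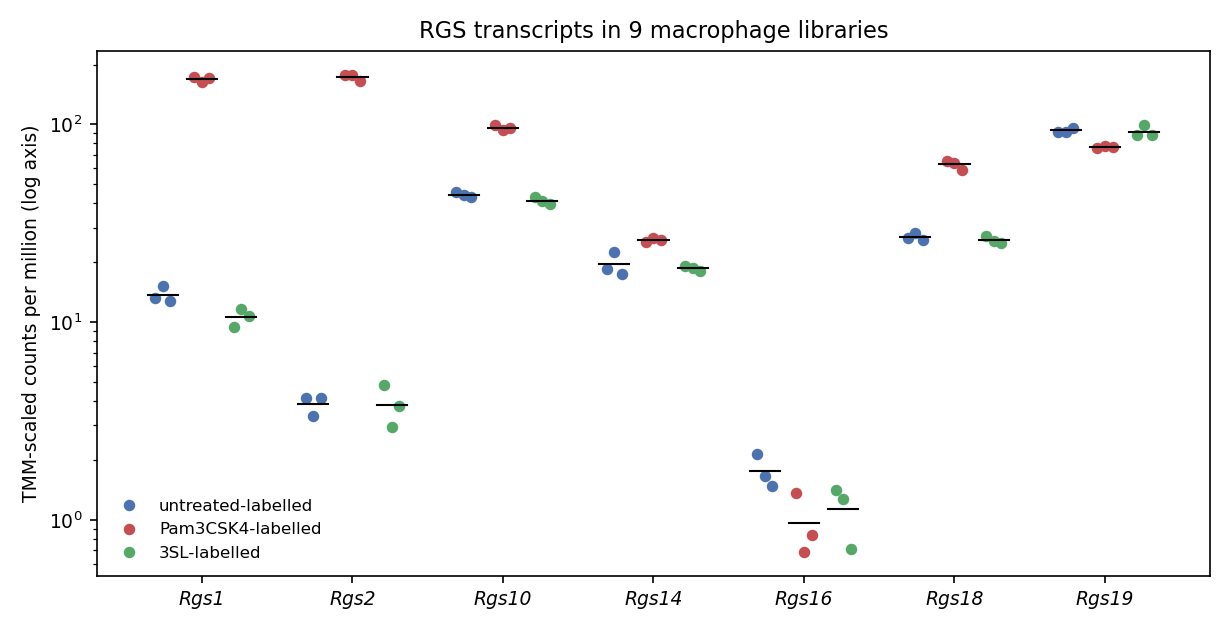
Level of each of the 7 RGS genes in every library, in CPM on a log axis, by labelled group, with the mean of each group as a line. Rgs1, Rgs2, Rgs10, Rgs14 and Rgs18 are highest in the 3 Pam3CSK4-labelled libraries. Rgs19 is lowest there with this scaling, but its difference from the untreated-labelled libraries is not called with library sizes unscaled.

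The 3SL-labelled libraries were next compared with the Pam3CSK4-labelled, the contrast that, if the descriptions hold, asks what 3SL adds to Pam3CSK4. This comparison shares the Pam3CSK4-labelled libraries with the one above, so its values are given beside the earlier ones and lend them no support. In it 71.5% of all tested genes were called, 34.7% higher and 36.8% lower in the 3SL-labelled. Of the 7 RGS genes 5 were lower, 1 was higher and 1 did not pass, and 6 did not overlap between the groups, against 73.1% of all tested genes. Rgs2 was 46.5-fold lower (log2 difference -5.54, SE 0.0923, adjusted p = 2.41e-27) and stood at rank 5 from the bottom of all tested genes. Rgs1 was 15.9-fold lower (-3.99, SE 0.0729, adjusted p = 1.85e-26). Rgs18 was 2.43-fold lower, Rgs10 2.34-fold and Rgs14 1.40-fold, with adjusted p of 2.36e-15, 2.25e-17 and 6.57e-05. Rgs19 was higher by a log2 difference of 0.26 (adjusted p = 4.07e-05), which was -0.01 and not called with library sizes unscaled (adjusted p = 0.863). Rgs16 gave 0.24 with an interval from -0.58 to 1.06 (adjusted p = 0.598). The median over the 7 was -1.22, against -0.018 over all tested genes.

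**Figure D2:**
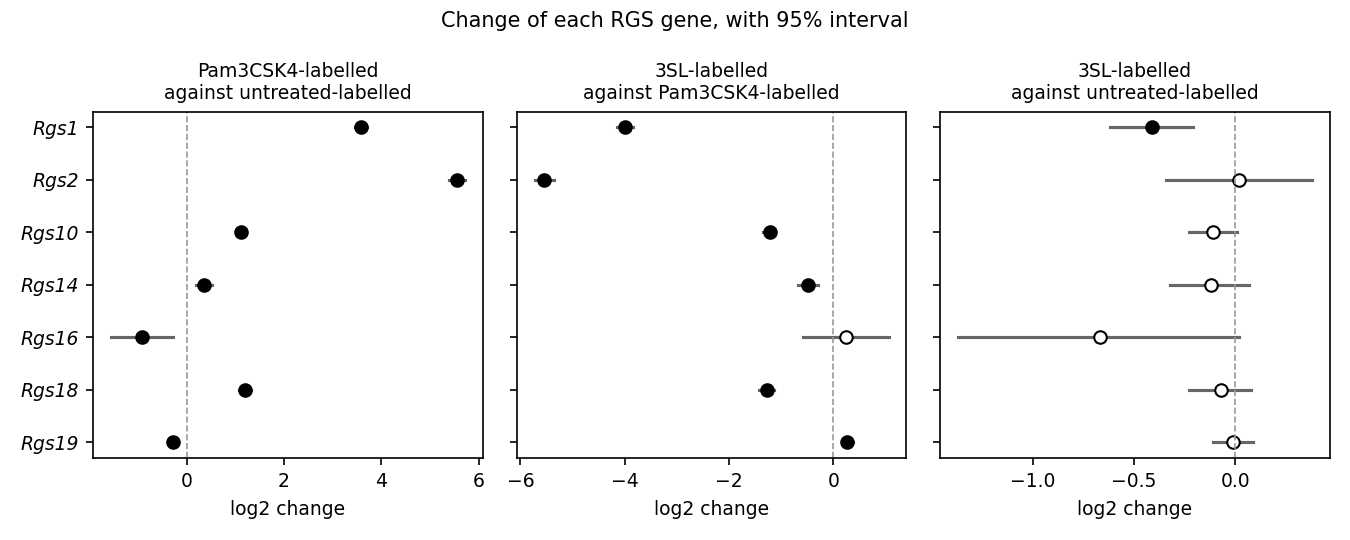
Log2 difference of each RGS gene in the 3 comparisons, with its 95% confidence interval. Filled points passed the test, open points did not, and the panels have separate axes. Rgs2 and Rgs1 lie farthest from 0 in the comparisons that involve the Pam3CSK4-labelled libraries. The values of Rgs19 there lie near 0 and are not called with library sizes unscaled.

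Between the 3SL-labelled and the untreated-labelled libraries 8.94% of tested genes were called, 3.83% higher and 5.11% lower in the 3SL-labelled. Changes of at least 2-fold were called in 0.174% of tested genes and in 0 of the 7 RGS genes. Among the 7 RGS genes only Rgs1 was called, 1.33-fold lower in the 3SL-labelled libraries (log2 difference -0.41, SE 0.0998, interval -0.62 to -0.21, adjusted p = 0.00689). That call was lost without B2 (-0.29, adjusted p = 0.158), without A2plus (-0.35, adjusted p = 0.0546) and with counts thinned to a common depth (-0.42, adjusted p = 0.0507). The other 6 did not pass, and with DESeq2, or at an unadjusted p under 0.05 in edgeR, Rgs1 was likewise the 1 member past the threshold. Over all 11469 tested genes DESeq2 called 802, and 2437 had an unadjusted p under 0.05 in edgeR. Rgs16 gave -0.67 with an interval from -1.37 to 0.02, which its low counts leave wide. The intervals were -0.34 to 0.38 for Rgs2, -0.23 to 0.01 for Rgs10, -0.32 to 0.07 for Rgs14, -0.23 to 0.08 for Rgs18 and -0.11 to 0.09 for Rgs19. Values did not overlap between these groups for 3 of the 7 (Rgs1, Rgs10 and Rgs16, with C2 and A2plus both at 42.6 CPM after rounding for Rgs10) and for 24.0% of all tested genes. The median over the 7 was -0.11, against -0.001 over all.

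Levels can be compared between genes only per length, so counts were also divided by the length of the exons of protein-coding transcripts. In the untreated-labelled libraries the order from the top was Rgs19 (43.5 CPM per kb), Rgs10 (33.4), Rgs18 (13.3), Rgs14 (8.3), Rgs1 (3.58), Rgs2 (1.19) and Rgs16 (0.756). The order was the same in the 3SL-labelled libraries. In the Pam3CSK4-labelled libraries it was Rgs10 (72.7), Rgs2 (53.2), Rgs1 (44.3), Rgs19 (35.8), Rgs18 (30.8), Rgs14 (11) and Rgs16 (0.412). No neighbours in these orders overlapped between libraries of a group. The place of Rgs1 depends on the gene model: with the exons of all its transcripts, an alternative added after seeing the data, its level in the Pam3CSK4-labelled libraries was 24.5 CPM per kb, below Rgs19 (34.3) and Rgs18 (30.8).

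The summed level per length of all 21 RGS genes was 110 ± 1.45 CPM per kb in the untreated-labelled, 253 ± 5.75 in the Pam3CSK4-labelled and 106 ± 2.94 in the 3SL-labelled libraries (SD, n = 3). The makeup of that sum differed in the Pam3CSK4-labelled group. Rgs19 made up 39.4% ± 1.32 of it in the untreated-labelled libraries and 14.2% ± 0.44 in the Pam3CSK4-labelled. Rgs2 went from 1.08% ± 0.137 to 21.1% ± 0.586 and Rgs1 from 3.24% ± 0.27 to 17.5% ± 0.496. Rgs10 held a like share in both, 30.2% ± 0.998 and 28.7% ± 0.538, and so did Rgs18, at 12% ± 0.367 and 12.2% ± 0.478. The other 14 RGS genes together held 5.77% in the untreated-labelled, 1.82% in the Pam3CSK4-labelled and 6.44% in the 3SL-labelled libraries. These shares depend on the gene model too. With the exons of all transcripts Rgs1 held 12.1% in the Pam3CSK4-labelled libraries, below Rgs19 (16.9%) and Rgs18 (15.2%), and Rgs2 held 23.5%.

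**Figure D3:**
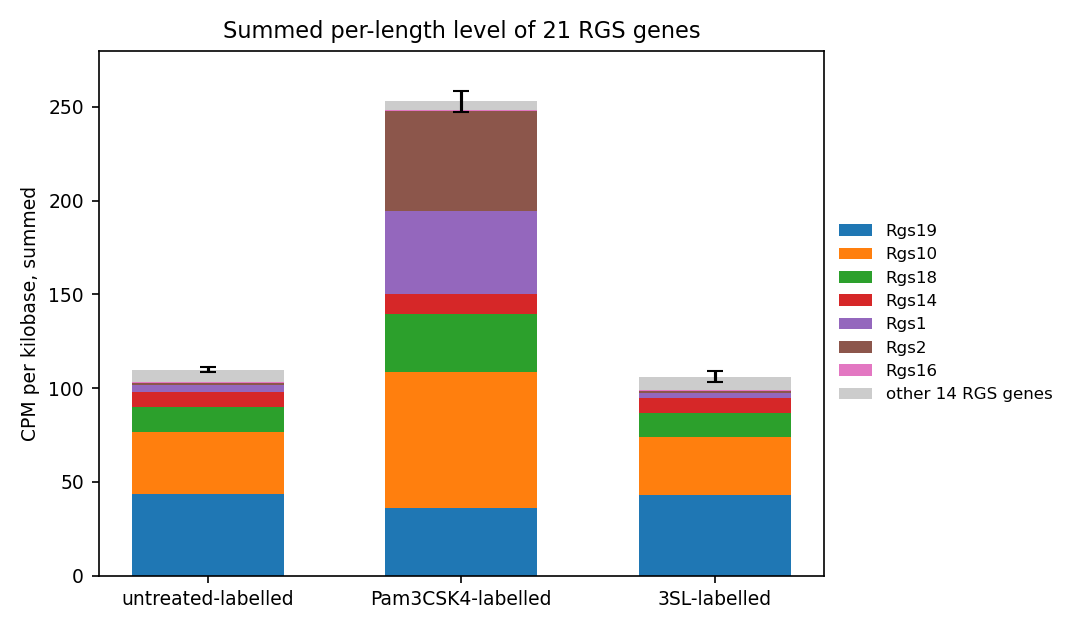
Mean level per length of the 21 RGS genes, stacked, in CPM per kb for each labelled group, with the SD of the sum over 3 libraries as error bar. Rgs19 and Rgs10 make up most of the untreated-labelled and 3SL-labelled bars, and Rgs2 and Rgs1 take 21.1% and 17.5% of the Pam3CSK4-labelled. With the exons of all transcripts these 2 shares are 23.5% and 12.1%.

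Ratios between members within a library do not depend on the scaling between libraries. The ratio of Rgs2 counts to Rgs1 counts per length ran from 0.26 to 0.384 in the untreated-labelled, from 1.13 to 1.27 in the Pam3CSK4-labelled and from 0.3 to 0.599 in the 3SL-labelled libraries. Rgs1 to Rgs19 ran from 0.074 to 0.0925, from 1.19 to 1.28 and from 0.0593 to 0.0677. Rgs10 to Rgs19 ran from 0.722 to 0.802, from 1.96 to 2.12 and from 0.671 to 0.782. In each case the Pam3CSK4-labelled libraries stood apart from the other 6.

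Of the 21 RGS genes 11 lie on chromosome 1. Rgs2, Rgs13, Rgs1, Rgs21 and Rgs18 follow each other on the minus strand over 776.1 kb with no other protein-coding gene between them. Over all tested genes 39.0% were called higher in the Pam3CSK4-labelled than the untreated-labelled libraries. The 3 detected genes of this row, Rgs2, Rgs1 and Rgs18, were all higher, by 47.1-fold, 11.9-fold and 2.30-fold. Between them, Rgs13 had 1 count and Rgs21 had 0 counts over all 9 libraries. The part of their position in these differences was not tested. Rgs16 has Rgs8 as its neighbour, 40.0 kb away, and Rgs8 had 50 counts in all. The longest run of bases shared by a member's coding transcripts and another RGS gene was 24, between Rgs16 and Rgs8.

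**Figure D4:**
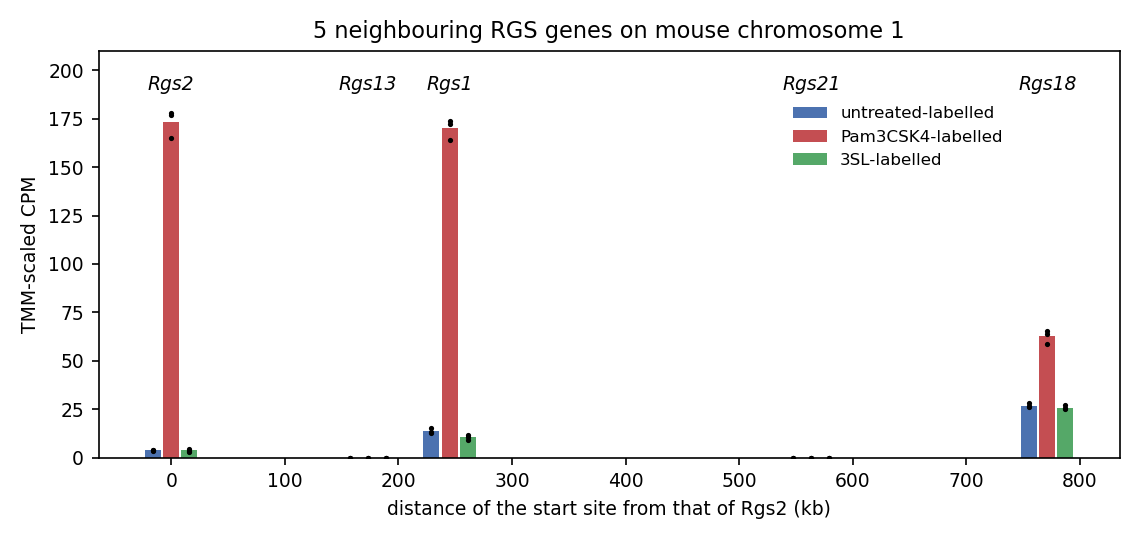
Level in CPM of the 5 RGS genes of the chromosome 1 row by labelled group (bars, means; points, libraries), against the distance of each start site from that of Rgs2 in kb. Rgs2, Rgs1 and Rgs18 are highest in the Pam3CSK4-labelled libraries, and Rgs13 and Rgs21, with 1 and 0 counts in all, lie at the axis.

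Outside the 7 members, 16 further RGS family genes were listed (14 with a number, and the binding proteins Rgs7bp and Rgs9bp) and 7 of them passed the filter on low counts. In the Pam3CSK4-labelled against the untreated-labelled libraries 2 of these 7 were higher, 3 were lower and 2 did not pass, with a median log2 difference of -0.59. Rgs12, a large multidomain RGS protein, was higher by 1.39 (5.64 ± 0.692 against 2.14 ± 0.227 CPM, adjusted p = 1.25e-07), and Rgs7bp, which anchors R7-class RGS proteins to membranes, by 1.11 (adjusted p = 0.000426). Rgs9, the RGS protein of photoreceptors and striatum, was lower by a log2 difference of -1.95 on 13 against 80 counts in all (adjusted p = 0.000361). Rgs11 gave -0.78 (adjusted p = 2.98e-05) and Rgs3 -0.59 (adjusted p = 0.00282), the latter not called with library sizes unscaled (-0.28) or counts thinned (-0.51). Rgs4 gave 0.07 and Rgs5 -0.94, neither called, though Rgs5 was called without B2 (-1.62, adjusted p = 0.0151). Against the Pam3CSK4-labelled libraries 3 were higher and 2 lower in the 3SL-labelled. Between the 3SL-labelled and untreated-labelled libraries 0 of the 7 were called by edgeR, 0 had an unadjusted p under 0.05 and 0 were called by DESeq2. Of those left untested, Rgs6 had 36 counts over all 9 libraries, Rgs7 41, Rgs17 68, Rgs20 10, Rgs9bp 2 and Rgs22 0.

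Proteins with a related RGS-like domain, such as axins and sorting nexins, were listed as 9 genes, of which 8 were tested. In the Pam3CSK4-labelled libraries 5 were higher, 2 lower and 1 did not pass, with a median log2 difference of 0.13 and none at 2-fold. Snx25, a sorting nexin, fell from 35.1 ± 2.06 to 22.3 ± 1.85 CPM (log2 difference -0.63, adjusted p = 9.92e-09), and Arhgef12, an exchange factor that binds G12 and G13 subunits, from 55 ± 1.21 to 36 ± 1.86 (-0.61, adjusted p = 3.58e-10). Receptor kinases and arrestins, which switch off the receptor itself, were tested in 7 of 8 genes, with 2 higher, 4 lower and 1 that did not pass (median -0.43). Grk3 fell from 17.4 ± 0.177 to 5.09 ± 0.6 CPM (-1.77, adjusted p = 1.11e-14) and Grk2 from 592 ± 5.2 to 320 ± 8.25 (-0.89, adjusted p = 6.88e-20), while Arrb1, a beta-arrestin, rose from 134 ± 7.77 to 201 ± 1.82 (0.59, adjusted p = 3.14e-13).

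Among the G protein alpha subunits, the direct targets of RGS proteins, 11 of 13 were tested, with 3 higher, 5 lower and 3 that did not pass (median log2 difference -0.16). Gna12 rose from 94.6 ± 5.23 to 195 ± 6.31 CPM (1.05, adjusted p = 3.8e-18). Of the beta and gamma subunits 12 of 15 were tested, with 3 higher, 5 lower and 4 that did not pass (median -0.21). Gng12 fell from 353 ± 3.7 to 133 ± 1.33 CPM (-1.41, adjusted p = 1.28e-23). Among 6 tested genes of other regulators 2 were higher and 3 lower (median -0.10), and Ric8a, a chaperone and exchange factor of alpha subunits, fell by 0.73 on the log2 scale (adjusted p = 4.85e-13). Of the effectors 12 of 16 were tested, with 5 higher, 4 lower and 3 that did not pass (median -0.04). Both adaptor subunits of PI3-kinase gamma fell, Pik3r5 from 739 ± 23.8 to 148 ± 7.63 CPM (-2.32, adjusted p = 1.33e-27) and Pik3r6 from 74.7 ± 1.03 to 12.4 ± 1.42 (-2.59, adjusted p = 1.54e-22).

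All 23 listed macrophage G protein-coupled receptors were tested, with 9 higher, 11 lower and 3 that did not pass (median -0.18). Fpr1, the formyl peptide receptor, fell from 501 ± 13.9 to 2.8 ± 0.637 CPM (log2 difference -7.46, adjusted p = 5.83e-33). Adora2a, an adenosine receptor, stood at 59 ± 4.02 CPM in the untreated-labelled libraries and had 5 counts in all over the 3 Pam3CSK4-labelled. Genes of each of these lists were called in both directions. With library sizes unscaled the medians turned positive for the alpha subunits (0.16), the beta and gamma subunits (0.10), the other regulators (0.21), the effectors (0.28) and the receptors (0.14), so no direction is given for these lists as wholes. In the 3SL-labelled against the Pam3CSK4-labelled libraries, which share the latter with this comparison, the higher and lower calls numbered 2 and 4 for RGS-like domain genes, 4 and 2 for kinases and arrestins, 6 and 2 for alpha subunits, 6 and 5 for beta and gamma subunits, 2 and 2 for other regulators, 5 and 5 for effectors and 14 and 9 for receptors. With library sizes unscaled they numbered 2 and 5, 4 and 2, 3 and 5, 4 and 5, 1 and 3, 4 and 5, and 11 and 10 in the same order. The balance of calls so turned for the alpha subunits (median 0.17, or -0.11 unscaled) and for the beta and gamma subunits (median 0.36, or 0.08 unscaled). Medians also changed sign for the other regulators (0.03, or -0.25 unscaled), the effectors (0.07, or -0.2) and the receptors (0.2, or -0.08).

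Between the 3SL-labelled and untreated-labelled libraries edgeR called 0 of 11 alpha subunits, 0 of 12 beta and gamma subunits, 0 of 12 effectors and 0 of 8 RGS-like domain genes, and so did DESeq2. At an unadjusted p under 0.05 edgeR counted 1, 3, 4 and 0 of them. Of the kinases and arrestins 2 of 7 were higher, among them Arrb1 at 173 ± 5.05 against 134 ± 7.77 CPM (0.37, adjusted p = 6.15e-07). Over all tested genes 8.94% were called, and 2437 of 11469 had an unadjusted p under 0.05. Of the 23 receptors 4 were higher and 7 lower, or 6 and 6 with library sizes unscaled. Adora2a was lower there by a log2 difference of -0.23 (adjusted p = 0.0218), and so was P2ry14, a receptor for UDP sugars, by -0.53 (adjusted p = 0.0182). Gpsm2, a GoLoco protein, gave -0.30 (adjusted p = 0.0126). The calls of Adora2a, P2ry14 and Gpsm2 were lost without B2 and with thinned counts. Those of Adora2a and P2ry14 were also lost without A2plus and without B2plus, and that of Adora2a without A2 and with library sizes unscaled.

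**Figure D5:**
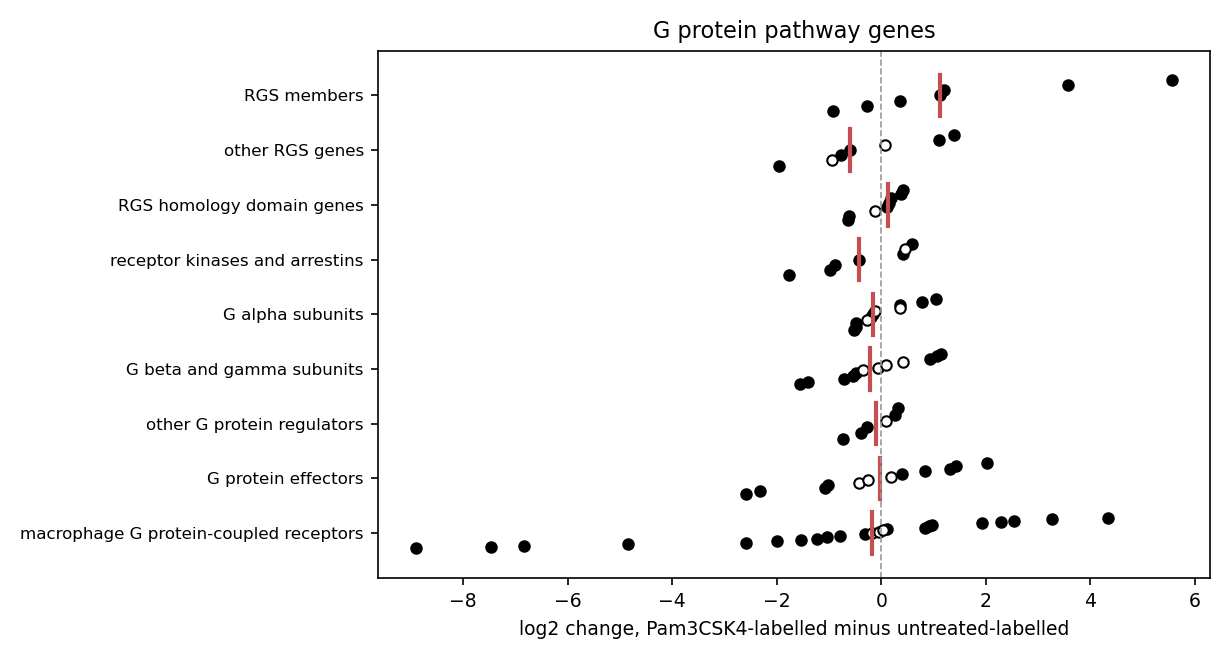
Log2 difference between the Pam3CSK4-labelled and untreated-labelled libraries for the tested genes of each list, 1 point per gene (filled where called), with the list's median as a bar. The RGS members have a median of 1.12, while the medians of the other lists lie between -0.59 and 0.13 and several of them change sign with library sizes unscaled.

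The genes outside the family whose profiles over the 9 libraries lay nearest to a member were found by the Euclidean distance between log2 CPM profiles, each centred on its own mean. Nptx1 (0.606), Mcm2 (0.655) and Ccsap (0.665) lay nearest to Rgs1, and Nanos1 (0.551), Plau (0.904) and Ung (1.06) nearest to Rgs2. Lipa lay nearest to Rgs10 (0.106) and was also among the 3 nearest to Rgs18 (0.164). Among the members themselves Rgs10 and Rgs18 were closest (0.181) and Rgs2 and Rgs16 farthest apart (8.55). For Rgs14 the nearest gene was Npy (0.197), for Rgs16 BC025920 (0.699) and for Rgs19 Ubxn6 and Usp15 (0.1 each). With library sizes unscaled neither Ubxn6 (log2 difference 0.01) nor Usp15 (0) was called between the Pam3CSK4-labelled and untreated-labelled libraries. All distances come from the same 9 libraries and mostly reflect the gap between the Pam3CSK4-labelled group and the rest.

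Summed levels of markers of other cell types were low beside the macrophage sum, most of it Lyz2, and moved with the groups in part. This did not hold gene by gene. Pf4 (238 to 528 CPM) and S100a9 (115 to 254) stood above the macrophage gene Mertk (44.7 to 103) in every library. The summed level of 10 neutrophil markers ran from 582 to 611 CPM in the untreated-labelled, 354 to 462 in the Pam3CSK4-labelled and 471 to 525 in the 3SL-labelled libraries. Of the 9 tested between the Pam3CSK4-labelled and untreated-labelled libraries 4 were lower (S100a8, S100a9, Ngp and Camp), 4 were higher and 1 was not called, with a median log2 difference of 0.33. The higher ones were Mpo (18.9 to 40.2 CPM), Elane (5.82 to 12.6), Prtn3 (10.1 to 12.4) and Retnlg (0.453 to 1.94). The summed level of 10 lymphocyte markers ran from 11.8 to 13.3, 11.2 to 15.2 and 10.3 to 12.4 CPM, with Cd3e and Ncr1 at 0 in the Pam3CSK4-labelled and Ncr1 at 0 in the 3SL-labelled libraries. Dendritic cell markers (7 genes) ran from 8.7 to 10.3, 3.52 to 5.05 and 6.61 to 7.15, stromal markers (5 genes) from 15 to 16.8, 3.36 to 3.85 and 10.8 to 13.9, and erythroid and mast cell markers (7 genes) from 3.5 to 4.24, 4.72 to 5.81 and 2.25 to 3.79 CPM, with Fcer1a at 0 in the 3SL-labelled. Single genes carried several of these sums. Cd4, at 8.03 to 12.7 CPM, made up most of the lymphocyte sum. Pdgfrb stood at 9.75 to 10.8 CPM in the untreated-labelled and 0.88 to 1.45 in the Pam3CSK4-labelled libraries. Of 4 dendritic cell markers tested between these groups 3 were lower in the Pam3CSK4-labelled and 1 was higher. Ccr7 fell from 3.39 to 4.5 CPM to at most 0.402, while Batf3 was higher. The part of these cells in the RGS differences was not tested.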

How the data were processed

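RNA sequencing libraries were prepared from TRIzol-extracted RNA with the NEBNext Ultra RNA kit, per the labels. The authors deposited 1 table of raw counts, of which 15 columns of other samples were not used. HISAT2 2.1.0, featureCounts and Subread are named in the submitters' processing notes, as is the human build hg38, although all identifiers are mouse. The strand setting was not given in the sources used here. Symbols were matched for 21909 of 22001 identifiers, and coordinates are from GENCODE M21 on GRCm38.

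The test was that of edgeR 4.0.16 (R 4.3.3): filterByExpr by group (11469 genes kept), TMM scaling, 1 quasi-likelihood model with a mean per group over 9 libraries, and Benjamini-Hochberg adjustment over all tested genes at 0.05. CPM use the TMM-scaled library sizes. A floor of 3 counts corresponds to 0.0746 to 0.422 CPM and covers counting error only. Within groups, libraries varied beyond counting noise (chi-square per degree of freedom 1.83 to 2.91). The procedure was tested on simulated data. Alternatives were unscaled library sizes, DESeq2 1.42.0 and its size factors, no filter, thinned counts, 2-group fits, a replicate block, and each library left out.

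The members and lists were chosen with earlier results of these data known. Genes named outside the members were, per list, at most 3 with the largest change or smallest p in a comparison, all other Rgs genes, and the 3 nearest profiles of each member.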

Additional observations from a re-analysis of the deposited data

How the results depend on the processing

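Rgs1, Rgs2, Rgs10, Rgs14 and Rgs18 kept their direction and call between the Pam3CSK4-labelled libraries and either other group under every alternative run. With library sizes unscaled, the median gene moved by 0.34 for Pam3CSK4-labelled against untreated-labelled and by -0.29 for 3SL-labelled against Pam3CSK4-labelled. The share of calls that were higher then went from 52% to 74.3% in the first comparison, from 48.5% to 27.6% in the second and from 42.8% to 66% for 3SL-labelled against untreated-labelled. Under that setting 0 members were called lower in the first comparison and 0 higher in the second. Calls were lost, with log2 differences near 0, for Rgs19 (0.04 and -0.01 in the first and second comparison) and Tubb2a (0.01 and -0.02). Likewise lost were those of Ubxn6 (0.01 and 0) and Usp15 (0 and 0.03). With 1 library left out, 1 to 2 members were called lower in the first comparison.

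For 3SL-labelled against untreated-labelled, 0 members were called, and 0 lower, with thinned counts, and 0 to 1 with 1 library left out. The number of genes called then ran from 626 (without B2) to 1038, with 683 without A2plus, and that of other pathway genes from 9 (without B2) to 15. The cause was not tested. The replicate block by letter called 951 genes and 1 member, Rgs1. Whether letters pair the libraries was not settled. Deviations from the group mean correlated over genes at -0.017 (A), 0.042 (B) and 0.008 (C) for same-letter libraries. For unlike letters they correlated at -0.033 to 0.023, and not every library correlated best with its own letter. Such correlations, over all tested genes with 3 libraries a group, cannot exclude a shared culture or mouse. Low counts limit Rgs16, Rgs5 and Rgs9.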
